A study of Rattus norvegicus with 10 samples.

Results

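B, T and NK lymphocyte genes were followed across islet arrays of rats on 2 diets, as a measure of how much lymphoid RNA each islet preparation held. The list named 39 genes, and a gene was measured where a probeset of the array carried its symbol alone. That held for 33 of the 39, out of 14217 genes measured in this way on the whole array, and for each gene the probeset with the highest mean over the 10 arrays was used. Cd79a, Pax5, Cd27, Ccr7, Ikzf1 and Ikzf3 had no such probeset and were not analysed here. By role, the 33 genes were 4 of B cells, 15 of T cells, 5 of cytotoxic T and NK cells, and 9 shared by lymphocytes or by leukocytes in general.

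Lymphocytes recognise antigen through receptors that they assemble by rearranging gene segments. A B cell carries its antibody on the surface next to the signalling chains CD79A and CD79B, and a T cell carries its receptor next to the CD3 chains and CD247, which the kinases LCK and ZAP70 read out. NK cells and cytotoxic T cells kill with perforin and granzymes. Healthy islets hold few lymphocytes and lymph nodes lie next to the pancreas.

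The islets came from male Wistar rats aged 7 weeks and caged singly, which ate either standard chow, with 8% of calories as fat, or a cafeteria diet, with 66%, for 10 days. Each diet had 5 arrays of the 1-colour Affymetrix Rat Genome 230 2.0 type, hybridised with independent samples of islets freed by collagenase, enriched by a Histopaque gradient and then hand-picked; whether a sample held the islets of 1 rat or of several was not given in the sources used here. The arrays were grouped by title. The labels conflict: in each of the 10 samples 3 fields, the title among them, named 1 diet and the diet characteristic named the other, so every direction below would turn if that characteristic were the correct one. Values are signals on the authors' scaled intensity scale, and log2 values are log2(signal + 14.15). Differences are cafeteria minus standard, tested with limma over 18625 probesets whose mean log2 value lay above the 40th percentile, a signal of about 94.8.

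The preparations carried the defining genes of islets on every array. The 10 endocrine markers summed to signals of 175592 to 218776 in the standard group and 207881 to 266338 in the cafeteria group. Array medians ran from 150.8 to 173.2, and the trimmed mean was between 500.1 and 500.2 on all arrays. The number of arrays limits the precision of each comparison, and no detection calls were used, so it is not known which of the dim signals lay above background. Of the 33 lymphocyte genes 15 passed the filter and 18 did not. In bulk RNA, fewer lymphocytes and less RNA per lymphocyte cannot be told apart.

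No lymphocyte gene passed the test between diets, although most of them had lower mean values in the cafeteria group. With limma 0 of the 15 tested genes had an adjusted p under 0.05, the lowest being 0.437 for Cxcr4, beside 0% of all tested probesets. At an unadjusted p under 0.05, 4 of the 15 had a negative difference, Cxcr4, Cd5, Ms4a1 and Cd247, beside 4.91% of all tested probesets, and 0 had a positive one, beside 5.51%. Of all 33 genes 27 had a negative difference and 6 a positive one, with a median of −0.53; over all tested probesets the median was 0.01 and 48.6% were negative. The filter was set on the mean over both groups, so a gene bright on a few standard arrays could pass through those alone. Without the filter 4 of 33 genes were lower at an unadjusted p under 0.05, beside 3.33% of probesets. Those 4 were Zap70, Cxcr4, Cd5 and Ms4a1, and Cd247 was no longer among them (limma unadjusted p = 0.0522). The lymphocyte genes varied together over the same arrays, so their counts are not independent of each other.

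**Figure D1:**
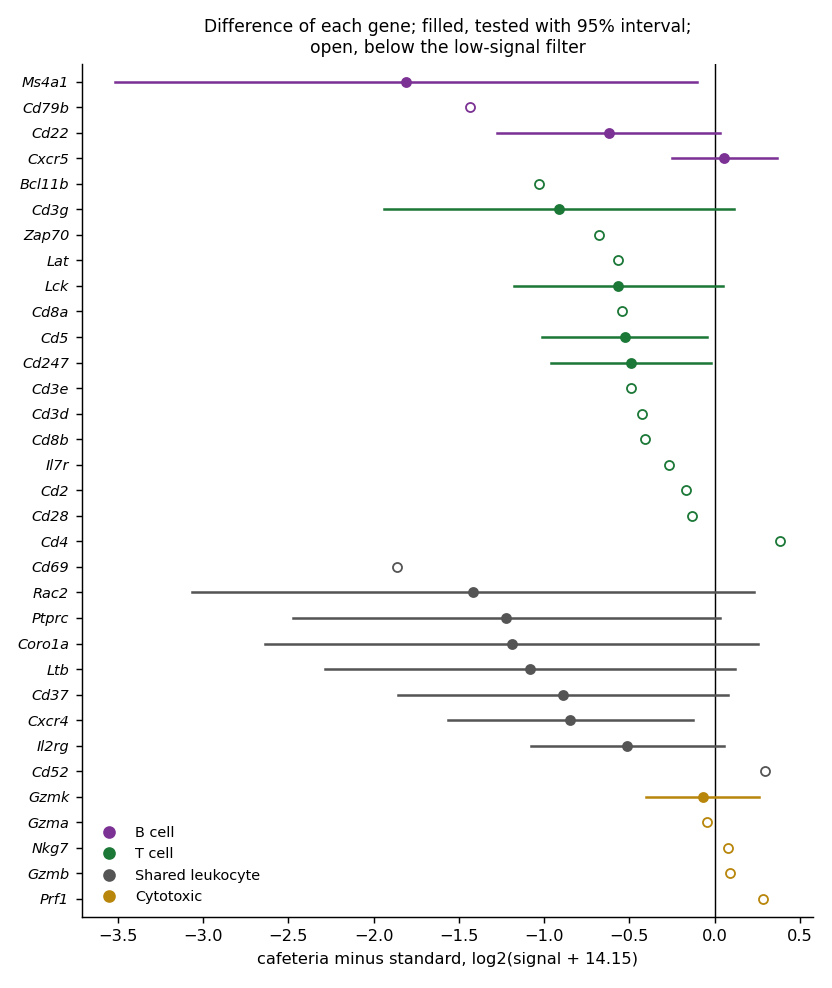
Difference between the cafeteria and standard groups for the 33 lymphocyte genes on the log2(signal + 14.15) scale, ordered within each role. Filled points were tested and have a 95% confidence interval from limma, and open points lay below the low-signal filter. Intervals of Ms4a1, Cd5, Cd247 and Cxcr4 end below 0, and the differences range from −1.86 (Cd69) to 0.38 (Cd4).

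The arrays differed in lymphocyte genes within each diet group. For each gene the mean over 10 arrays was subtracted on the log2 scale, and the deviations were averaged over the 33 genes. Standard replicates 1, 3 and 5 stood at 0.59, 0.73 and 0.90. Cafeteria replicate 3 followed at 0.35. The remaining arrays were below 0, at −0.59 in standard replicate 2, −0.19 in standard replicate 4, and −0.42, −0.40, −0.42 and −0.55 in cafeteria replicates 1, 2, 4 and 5. Among standard arrays, 22 of 33 genes (66.7%) read higher on each of replicates 1, 3 and 5 than on either of replicates 2 and 4, beside 9.08% of all tested probesets; this ordering was chosen after the values were seen. Among cafeteria arrays, replicate 3 had the highest signal for 20 of 33 genes, while it was the highest for 21.4% of all tested probesets. Over all 10 arrays, standard replicate 5 was the highest for 13 genes and standard replicate 3 for 9, beside 11.7% and 11.4% of all tested probesets. Of the 15 tested genes, 11 had a spread within groups above the 90th percentile of tested probesets, with a median within-group SD of 0.60 on the log2 scale against 0.20 over all tested probesets.

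**Figure D2:**
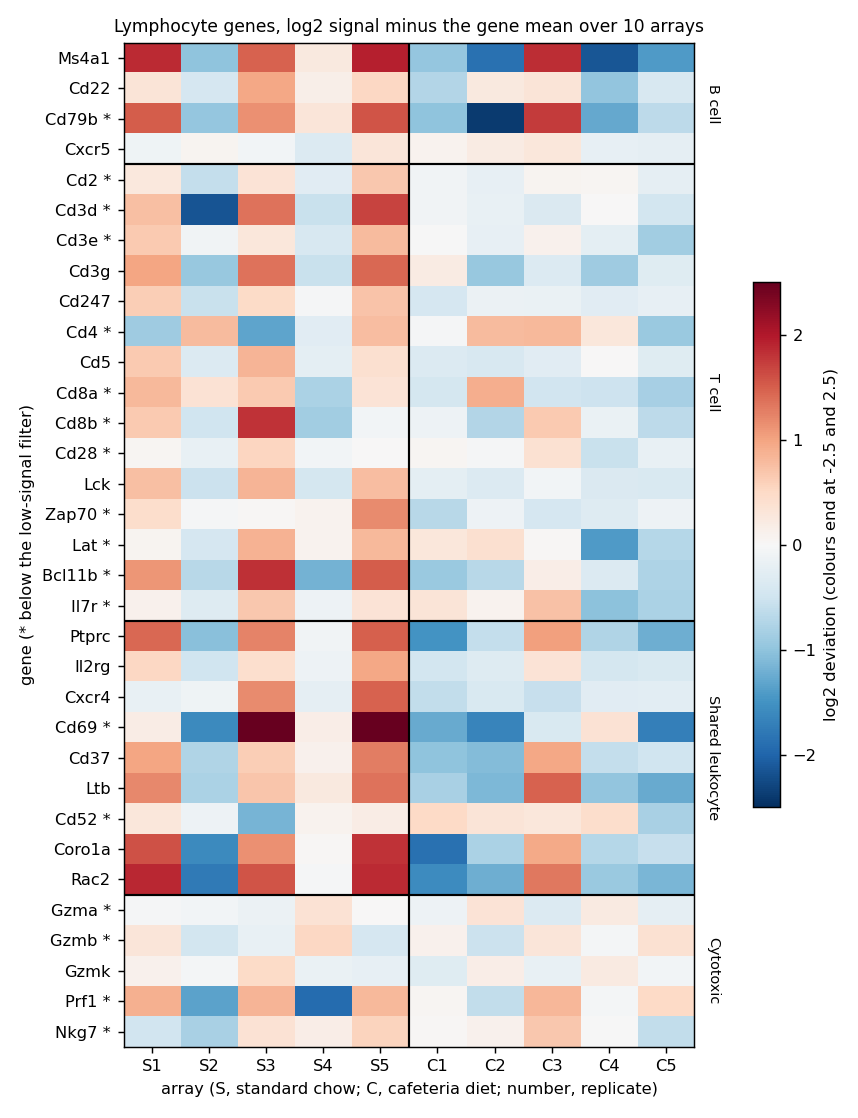
Log2 signal of each of 33 lymphocyte genes minus its mean over 10 arrays, with genes in rows by role and arrays in columns (S, standard chow; C, cafeteria diet; the number is the replicate); an asterisk marks a gene below the low-signal filter. S1, S3 and S5 are red for most B cell, T cell and shared genes, and C3 is red for Ms4a1, Cd79b, Ptprc, Ltb, Coro1a and Rac2 but near white for most T cell genes.

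Promoters of the measured genes were read for short factor motifs because the genes varied together over arrays. RefSeq sequences on assembly GRCr8 were at hand for 25 of the 33 genes, and 250 bases before the start were searched on both strands. The 8 without a sequence were Ms4a1, Cd79b, Cxcr5, Cd4, Cd8b, Bcl11b, Cd69 and Rac2. Of the B cell genes only Cd22 was therefore searched, for the octamer as for the other motifs. A match to TGTGGT, the core bound by RUNX factors of T cells, was found for 10 of 25 genes and in 14.5% of all 33469 promoters. The 10 were Cd2, Cd28, Il7r, Lat, Lck and all 5 cytotoxic genes. Of those 5 only Prf1 had the ordering of standard arrays given above. AGGAAGT, a site of ETS factors, was found for 8 genes and in 7.08%. The longer GAGGAAGT, which contains it, was found for 2 genes and in 2.04%, and the ETS form CGGAAG for 1 gene and in 13.9%. CAGGTG, an E-box of the E proteins of lymphocytes, was found for 9 genes and in 15.9%, TATAAA for 3 genes and in 12.9%, the kappaB decamer for 1 gene and in 0.0956%, and the octamer ATGCAAAT for 0 genes and in 1.56%. These are letter matches in promoters of any gene, given with no test. A lymphocyte gene counted once if any of its promoters matched, and Lck had 2, while the percentages are shares of promoters. The 250 bases before the start are printed 5′ to 3′ on the gene's strand for 5 genes, with matches in capitals: Cd22, the one B cell gene with a sequence, at chr1:95259731-95259980 (minus strand), Cd3g for T cells at chr8:54183919-54184168 (minus), Ptprc for all leukocytes at chr13:52259747-52259996 (minus), Ltb, high in cafeteria replicate 3, at chr20:3634055-3634304 (minus), and Cxcr4, not high there, at chr13:42634289-42634538 (minus).
Cd22: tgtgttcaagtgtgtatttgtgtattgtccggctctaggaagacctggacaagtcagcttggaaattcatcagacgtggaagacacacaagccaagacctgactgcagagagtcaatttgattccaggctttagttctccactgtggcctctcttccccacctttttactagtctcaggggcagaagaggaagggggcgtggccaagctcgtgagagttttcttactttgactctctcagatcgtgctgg
Cd3g: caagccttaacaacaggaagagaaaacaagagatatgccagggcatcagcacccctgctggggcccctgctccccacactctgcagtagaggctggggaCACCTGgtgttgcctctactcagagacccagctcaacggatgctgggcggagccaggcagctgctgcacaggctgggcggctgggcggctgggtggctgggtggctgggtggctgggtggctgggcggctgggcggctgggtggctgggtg
Ptprc: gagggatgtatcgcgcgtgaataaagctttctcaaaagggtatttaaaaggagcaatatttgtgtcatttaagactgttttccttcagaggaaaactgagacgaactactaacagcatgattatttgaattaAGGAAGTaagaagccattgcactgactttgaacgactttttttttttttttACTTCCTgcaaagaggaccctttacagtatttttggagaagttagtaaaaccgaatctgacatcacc
Ltb: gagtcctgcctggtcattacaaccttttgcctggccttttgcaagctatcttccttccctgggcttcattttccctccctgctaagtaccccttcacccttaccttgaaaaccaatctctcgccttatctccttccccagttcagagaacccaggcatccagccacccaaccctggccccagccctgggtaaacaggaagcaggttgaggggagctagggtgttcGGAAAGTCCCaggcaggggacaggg
Cxcr4: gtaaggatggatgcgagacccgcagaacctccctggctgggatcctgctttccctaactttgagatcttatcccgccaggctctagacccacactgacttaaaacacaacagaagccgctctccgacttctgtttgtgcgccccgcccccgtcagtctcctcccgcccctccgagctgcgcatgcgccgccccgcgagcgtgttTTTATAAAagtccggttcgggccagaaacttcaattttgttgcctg
The capitals mark an E-box read on the opposite strand in Cd3g, an ETS match on each strand in Ptprc, the kappaB match on the opposite strand in Ltb and overlapping TATAAA matches on both strands in Cxcr4. The Cd22 window held none of the 8 motifs. The starts of Cd3g and Cd3d lay 1601 bases apart on opposite strands.

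Of the B cell genes, Ms4a1 and Cd79b set 4 arrays apart from the rest, standard replicates 1, 3 and 5 and cafeteria replicate 3. The same arrays were the highest for Cd22 by a narrow margin only, and Cxcr5 did not separate them. Ms4a1 encodes CD20, a membrane protein of mature B cells. Its signal was 479.7, 54.0, 364.5, 146.3 and 509.5 in standard replicates 1 to 5, and 55.9, 23.1, 472.7, 16.8 and 37.1 in cafeteria replicates 1 to 5. Cafeteria replicate 3 thus lay inside the range of the brightest standard arrays, standard replicate 2 lay among the dim cafeteria arrays, and the groups overlapped. The difference was −1.81 (SE 0.776, 95% confidence interval −3.52 to −0.11, limma adjusted p = 0.460), a 3.51-fold lower level in the cafeteria group. Its spread within groups was at percentile 99.9 of tested probesets.

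Cd79b, the signalling partner of surface antibody, showed the same order. It read 281.9, 38.97, 215.2, 114.1 and 294.4 in the standard arrays and 37.1, 5.6, 332.8, 28.8 and 51.9 in the cafeteria arrays, a difference of −1.43 for a gene below the filter and therefore not tested. Cafeteria replicate 3 was here the highest of the 10 arrays. Cd22, an inhibitory coreceptor of B cells, spread less. Its standard signals were 223.7, 127.7, 353.6, 195.7 and 258.1 and its cafeteria signals 99.8, 209.8, 221.5, 81.3 and 129.8. The groups overlapped at a difference of −0.62 (SE 0.298, adjusted p = 0.486).

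Cxcr5 encodes the chemokine receptor that draws B cells and follicular helper T cells into follicles. Its brighter probeset did not follow the other B cell genes: the standard arrays lay between 484.0 and 768.2 and the cafeteria arrays between 525.2 and 756.9, a difference of 0.06 (SE 0.141, adjusted p = 0.901). Its second, dimmer probeset differed by −0.04 and had its highest signal, 143.3, in cafeteria replicate 3. Over the 4 B cell genes the median difference was −1.03, with 3 negative and 1 positive. The mean deviation of the 4 genes was 0.90, −0.58, 0.88, 0.09 and 1.09 in standard replicates 1 to 5. In cafeteria replicates 1 to 5 it was −0.65, −0.95, 1.05, −1.15 and −0.67. Without cafeteria replicate 3 the median difference was −1.41.

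Most T cell genes were high on 3 of those 4 arrays, with 11 of the 15 higher on each of standard replicates 1, 3 and 5 than on either of replicates 2 and 4. Cd3g encodes the gamma chain of the T cell receptor complex. It read 269.0, 59.4, 351.6, 83.5 and 373.0 in the standard arrays and 150.0, 60.3, 98.5, 62.8 and 101.3 in the cafeteria arrays. Standard replicates 1, 3 and 5 lay above all other arrays, and cafeteria replicate 3 lay within the range of the other cafeteria arrays. The difference was −0.91 (SE 0.467, adjusted p = 0.508). Its neighbour Cd3d, for the delta chain, read 133.2, 5.6, 209.9, 45.1 and 268.1 in the standard group against 68.5, 62.8, 54.0, 74.5 and 50.1 in the cafeteria group, a difference of −0.43 below the filter.

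Cd3e, for the epsilon chain, had 2 probesets, and standard replicates 1, 3 and 5 were the highest arrays of both. The brighter ran from 63.2 to 161.6 in the standard arrays and from 41.9 to 95.3 in the cafeteria arrays (difference −0.49, below the filter). The dimmer read 178.7, 10.5, 159.3, 19.9 and 225.3 in the standard arrays and 5.2, 4.0, 50.7, 25.9 and 3.9 in the cafeteria arrays, a difference of −1.73. Cd247, the zeta chain that carries most of the receptor's signalling motifs, read 235.5, 97.2, 213.6, 144.4 and 252.0 in the standard group and 107.7 to 132.3 in the cafeteria group (difference −0.49, SE 0.213, adjusted p = 0.464). The cafeteria arrays were tightly grouped for Cd247, and standard replicate 2 lay below them.

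Among the kinases and the adaptor of the T cell receptor, Lck had the same 3 bright arrays, and Zap70 and Lat did not. Lck, the kinase that starts receptor signalling, read 659.3, 259.5, 701.6, 281.2 and 670.2 in the standard arrays and 322.3, 298.2, 365.1, 295.5 and 291.8 in the cafeteria arrays. Standard replicates 2 and 4 were below each cafeteria array. The difference was −0.56 (SE 0.278, adjusted p = 0.497). Zap70, the kinase that LCK activates, was the one T cell gene whose groups did not overlap, with 126.0, 87.4, 91.0, 95.7 and 221.6 in the standard arrays and 49.5 to 80.9 in the cafeteria arrays; the difference was −0.68 below the filter, and its second, dimmer probeset differed by −0.0049. Groups did not overlap in this direction for 2 of the 33 genes, Zap70 and Cxcr4, beside 1.45% of all tested probesets, and in the other direction for 0 genes, beside 0.988%. Lat, the membrane adaptor that ZAP70 phosphorylates, read 91.6, 61.1, 169.7, 93.8 and 163.9 in the standard arrays and 108.7, 119.5, 88.5, 23.8 and 47.6 in the cafeteria arrays, with a difference of −0.57 below the filter. It was bright on standard replicates 3 and 5 but not on replicate 1.

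Other T cell surface receptors were mostly dim, and the lineage factor Bcl11b had the same 3 bright arrays. Cd5, an inhibitory receptor of T cells, read 199.4, 92.8, 228.5, 99.5 and 164.3 in the standard arrays and 87.9 to 122.2 in the cafeteria arrays (difference −0.53, SE 0.220, adjusted p = 0.453). Bcl11b, a transcription factor that T cells need to commit to their lineage, read 128.7, 26.7, 221.0, 14.97 and 173.7 in the standard arrays and 20.4 to 59.8 in the cafeteria arrays, with cafeteria replicate 3 the highest of the latter (difference −1.03, below the filter). Cd2, an adhesion receptor of T and NK cells, differed by −0.17, Cd28, the costimulatory receptor, by −0.13, and Il7r, the receptor for the survival cytokine interleukin 7, by −0.27. Cd8a and Cd8b, the 2 chains of the cytotoxic T cell coreceptor, differed by −0.55 and −0.41. The other 2 Cd8a probesets, both dimmer on average, differed by −0.64 and −1.28, each with its highest signal, 90.3 and 117.4, in standard replicate 3. Cd4, the helper coreceptor, which rat macrophages also express, differed by 0.38 and was the one T cell gene with a positive difference.

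Over the 15 T cell genes, 14 had a negative difference and the median was −0.49. Of these 4 were tested and 11 lay below the filter. The mean deviation was 0.47, −0.42, 0.70, −0.38 and 0.76 in standard replicates 1 to 5. It was −0.17, −0.12, 0.06, −0.38 and −0.51 in cafeteria replicates 1 to 5. Cafeteria replicate 3, which matched standard replicates 1, 3 and 5 in the mean of B cell genes at 1.05, thus stood at 0.06 in T cell genes, against 0.47 to 0.76 on those 3 arrays. That B cell mean rested mainly on Ms4a1 and Cd79b, which deviated by 1.84 and 1.74 in cafeteria replicate 3, against 0.32 for Cd22 and 0.29 for Cxcr5. Standard replicate 4 differed in the same sense, at 0.09 in B cell genes and −0.38 in T cell genes. Cafeteria replicate 3 was still the highest cafeteria array for 8 of the 15 T cell genes. For 2 of them, Il7r and Cd4, it was the highest of all 10 arrays. A single array has no replicate, so the contrast between B and T cell genes on it is given as a description, with no test.

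**Figure D3:**
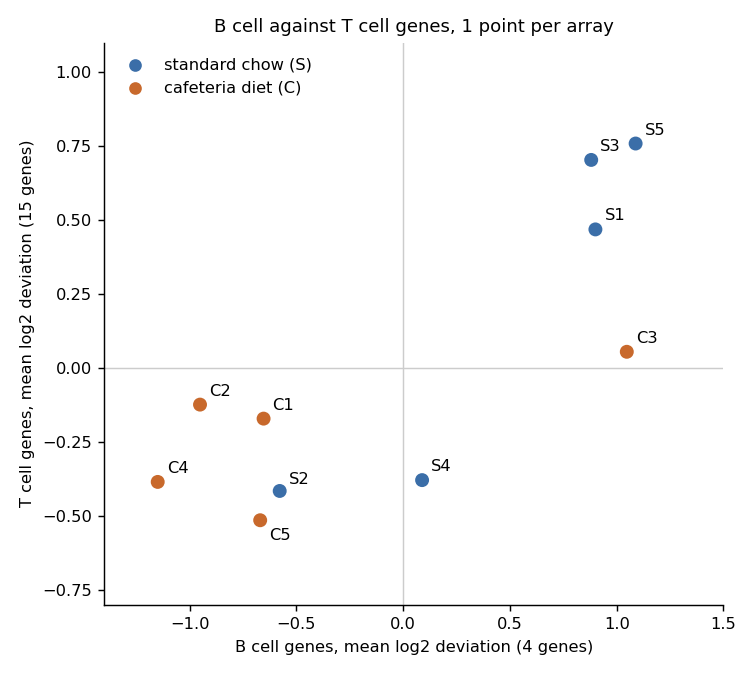
Mean log2 deviation of 4 B cell genes (horizontal axis) and 15 T cell genes (vertical axis) on each of 10 arrays, with 1 point per array (S, standard chow; C, cafeteria diet). S1, S3 and S5 lie at the upper right, C3 lies at the same B cell level as those 3 but at 0.06 for T cell genes, and the other arrays lie at or below 0.09 on both axes.

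Genes shared by leukocytes were high on the same 4 arrays as Ms4a1 and Cd79b, apart from Cxcr4, Cd69 and Cd52. Ptprc, the gene whose promoter held an ETS match on each strand, encodes CD45, the phosphatase on all nucleated blood cells. It read 801.2, 132.3, 694.7, 270.9 and 837.9 in the standard arrays and 92.2, 185.3, 599.5, 164.4 and 114.5 in the cafeteria arrays. The difference was −1.22 (SE 0.571, adjusted p = 0.480), and its second probeset differed by −0.75. Rac2, the blood cell form of the Rac GTPases, read 1681.9, 120.9, 1346.4, 434.1 and 1666.5 in the standard arrays and 140.4, 182.2, 1132.7, 225.8 and 194.0 in the cafeteria arrays. The highest of the 10 signals was 13.9 times the lowest, and both the lowest and the highest were standard arrays. The difference was −1.42 (SE 0.750, adjusted p = 0.520).

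Coro1a, an actin regulator of leukocytes, read 976.8, 94.5, 714.5, 321.5 and 1143.0 in the standard arrays and 76.8, 175.9, 619.4, 188.1 and 208.2 in the cafeteria arrays (difference −1.19, SE 0.658, adjusted p = 0.529). Ltb, the lymphotoxin subunit that lymphocytes display to organise lymphoid tissue, read 348.8, 77.3, 242.8, 174.9 and 395.1 against 76.4, 58.8, 428.8, 66.0 and 52.2 (difference −1.08, SE 0.547, adjusted p = 0.506). For Ltb cafeteria replicate 3 was the brightest of all arrays. Cd37, a tetraspanin most abundant on B cells, read 251.9, 66.0, 192.9, 131.1 and 314.0 against 52.8, 49.9, 248.7, 75.1 and 81.5 (difference −0.89, SE 0.440, adjusted p = 0.497). Il2rg, the common gamma chain of cytokine receptors, ran from 277.3 to 785.3 and from 284.1 to 501.3, again with cafeteria replicate 3 the highest of its group (difference −0.51, adjusted p = 0.505).

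Cxcr4 and Cd69 had another order. Cxcr4, the receptor for the chemokine CXCL12, read 651.6, 693.0, 1699.5, 633.0 and 2093.0 in the standard arrays and 481.6, 567.3, 496.2, 612.3 and 623.4 in the cafeteria arrays. Only standard replicates 3 and 5 stood out, standard replicate 1 was close to replicates 2 and 4, and cafeteria replicate 3 was not raised. The groups did not overlap, but the gap between them, from 623.4 to 633.0, was small. The difference was −0.85 (SE 0.326, 95% confidence interval −1.56 to −0.13, unadjusted p = 0.0249, limma adjusted p = 0.437). The other 2 Cxcr4 probesets differed by −0.74 and −0.61 with the same 2 bright arrays, but their groups overlapped: the lowest standard signals were 325.1 and 483.5 and the highest cafeteria signals 345.5 and 543.3.

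Cd69, an early activation marker that keeps lymphocytes in tissue, read 50.05, 4.4, 433.2, 48.6 and 406.6 in the standard arrays and 9.3, 3.7, 28.8, 57.5 and 2.9 in the cafeteria arrays. Standard replicates 3 and 5 were again the bright pair, and the remaining arrays overlapped at signals below the filter. The difference was −1.86, the most negative of the 33 genes, and it was not tested. Cd52, a small surface protein of lymphocytes, did not follow the others. It ran from 7.0 to 53.3 over all arrays, with a difference of 0.30 below the filter. Over the 9 shared genes 8 differences were negative, with a median of −1.08.

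**Figure D4:**
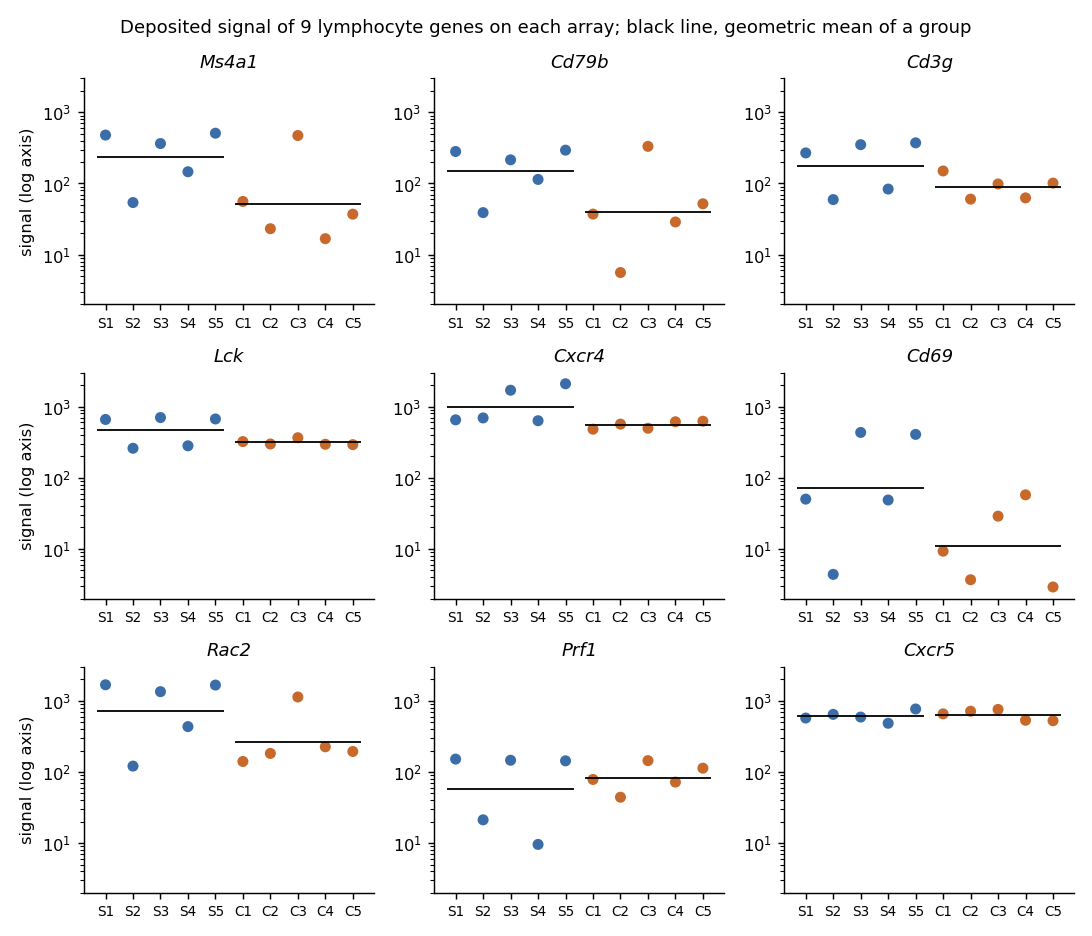
Deposited signal of 9 lymphocyte genes on each of 10 arrays, on a log axis (S, standard chow, blue; C, cafeteria diet, orange); the black line is the geometric mean of a group of 5. Ms4a1, Cd79b and Rac2 are high on S1, S3, S5 and C3, Cd3g and Lck on S1, S3 and S5, and Cxcr4 and Cd69 on S3 and S5, while Cxcr5 is level.

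Of the 5 cytotoxic genes, Prf1 alone was higher on each of standard replicates 1, 3 and 5 than on either of replicates 2 and 4. Prf1 encodes perforin, which opens the target cell membrane. It read 151.8, 21.2, 146.1, 9.6 and 143.5 in the standard arrays and 78.4, 44.1, 144.4, 72.1 and 113.1 in the cafeteria arrays. Standard replicates 1, 3 and 5 and cafeteria replicate 3 were within 143.5 to 151.8, and standard replicates 2 and 4 were the lowest, at a difference of 0.28 below the filter. Gzma, Gzmb and Gzmk, the granzyme proteases delivered through that pore, differed by −0.05, 0.09 and −0.07, and Nkg7, a granule protein of killer cells, by 0.08. Nkg7 was highest in cafeteria replicate 3 at 82.9 and standard replicates 5 and 3 at 74.95 and 64.0, but read 29.6 in standard replicate 1. Gzmk was the one of the 5 above the filter, at 112.3 ± 26.5 in standard and 105.6 ± 18.8 in cafeteria arrays (mean ± SD, n = 5 each, limma adjusted p = 0.883). The median difference of the 5 was 0.08, and it turned to between −0.07 and −0.0042 without standard replicate 1, 2 or 5 and to −0.02 with array weights. The mean deviation of the 5 genes was 0.16, −0.55, 0.27, −0.21 and 0.15 in standard replicates 1 to 5. In cafeteria replicates 1 to 5 it was −0.05, −0.11, 0.26, 0.07 and −0.0035. Standard replicates 1, 3 and 5 and cafeteria replicate 3 were thus the highest arrays in this mean, which includes Prf1.

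Other genes of the same cells were listed by cell type, and their list means were high on the same arrays, although single genes differed. Of 18 further B cell genes 11 were measured and 6 tested, with 10 differences negative and 0 past the test or at an unadjusted p under 0.05. Cr2, the complement receptor of mature B cells and follicular dendritic cells, read 579.6, 22.6, 339.0, 181.8 and 842.9 in the standard arrays and 46.8, 15.2, 675.9, 31.4 and 44.0 in the cafeteria arrays (difference −1.73, SE 0.960, adjusted p = 0.531). Pou2af1, the B cell coactivator of octamer factors, read 271.6 in cafeteria replicate 3 and 44.2 to 49.3 in the other cafeteria arrays (difference −1.01, adjusted p = 0.522). Bank1, a scaffold of B cell receptor signalling, differed by −0.81 (adjusted p = 0.513) and Ebf1, a B cell factor that stromal cells also express, by −0.18 (adjusted p = 0.5003). The other 2 tested genes, named after their values were seen, had other orders. Blnk, an adaptor of B cell receptor signalling, read 723.4, 431.5, 478.9, 572.2 and 396.4 in the standard arrays and 605.8, 459.6, 620.1, 380.5 and 407.0 in the cafeteria arrays (difference −0.07, adjusted p = 0.911). Fcrla, an Fc receptor-like protein of B cells, read 370.2, 488.7, 291.0, 337.6 and 711.2 against 311.6, 350.3, 488.0, 302.9 and 299.9 (difference −0.27, adjusted p = 0.676). The mean deviation of the 11 was 0.75 in cafeteria replicate 3 and 0.66, 0.45 and 0.89 in standard replicates 1, 3 and 5.

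Of 20 further T cell genes 17 were measured and 4 tested, with 17 differences negative, 0 past the test and 1 at an unadjusted p under 0.05. That 1 was Tcf7, the factor of naive and memory T cells. It read 620.9, 48.1, 732.9, 127.1 and 877.6 in the standard arrays and 50.4, 74.2, 196.1, 111.7 and 74.8 in the cafeteria arrays. Cafeteria replicate 3 was the highest of its group but below standard replicates 1, 3 and 5 (difference −1.62, SE 0.695, adjusted p = 0.460). Lef1, its relative, differed by −0.47, Lcp2, the adaptor SLP-76, by −0.09, and Fyb1, an adaptor that binds it, by −0.0055. Lcp2 and Fyb1 were highest in cafeteria replicate 5, at 180.1 and 1151.7. The mean deviation of these 17 genes was 0.22 in cafeteria replicate 3, and 0.53, 0.46 and 0.63 in standard replicates 1, 3 and 5. Of 12 further NK and cytotoxic genes 9 were measured and 1 tested, Klrk1, the activating receptor NKG2D, at −0.31 (adjusted p = 0.714).

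Plasma cell genes and genes of lymphoid tissue stroma and vessels were set beside them. Of 7 plasma cell genes 4 were measured. Jchain, which joins secreted antibody into polymers, was highest in cafeteria replicate 3 at 584.4, while the other cafeteria arrays read 58.5 to 158.3 and the standard group 105.2 to 355.7 (difference −0.44, adjusted p = 0.776). Prdm1 and Sdc1 differed by −0.12 and −0.0021. All 9 lymphoid tissue genes were measured, 6 were tested, 9 had a negative difference and 0 passed (lowest adjusted p = 0.480, Madcam1, a vessel address protein for lymphocytes, at −0.55).

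Cxcl13, the stromal chemokine that attracts B cells through CXCR5, read 966.8, 35.4, 176.0, 396.8 and 1121.0 in the standard arrays and 56.3, 72.4, 971.6, 37.4 and 32.8 in the cafeteria arrays. Cafeteria replicate 3 lay between standard replicates 1 and 5 (difference −1.64, SE 0.989, adjusted p = 0.557). Ccl19, a chemokine for T cells and dendritic cells, read 446.8, 44.1, 173.9, 94.9 and 271.9 against 24.3, 76.4, 192.6, 66.9 and 127.7 (difference −0.85, adjusted p = 0.595). Lyve1, a receptor of lymphatic vessels and some macrophages, differed by −0.59 (adjusted p = 0.649). The mean deviation of the 9 was 0.97, 0.48 and 1.15 in standard replicates 1, 3 and 5, 0.46 in cafeteria replicate 3, −0.78 and 0.09 in standard replicates 2 and 4, and −0.86 to −0.18 in the other cafeteria arrays.

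Markers of other cell types moved with the lymphocyte genes in part, and their share in the differences was not tested. Of 14 myeloid markers 13 were measured, with 10 negative differences; their summed signal ran from 3499 to 8811 in the standard arrays and from 3552 to 12848 in the cafeteria arrays, and their mean deviation was highest in cafeteria replicate 3 at 0.67. Of 7 MHC class II markers, which B cells, macrophages and dendritic cells share, 6 differences were negative, with sums of 4246 to 15499 and 4376 to 13055. Their mean deviation was 0.27, −0.62, −0.14, 0.32 and 1.05 in standard replicates 1 to 5. In cafeteria replicates 1 to 5 it was −0.44, −0.56, 0.73, −0.32 and −0.29. In this mean standard replicates 1 and 3 lay below standard replicate 4. RT1-Bb alone had both of them lower, with deviations of −1.57, −2.94 and 1.46 in standard replicates 1, 3 and 4. Cd74, RT1-Da, RT1-Db1 and RT1-Ba were higher on both than on replicate 4. RT1-DMa was higher on replicate 3 only and RT1-DMb on replicate 1 only. Acinar markers had another order. Their mean deviation was lowest in cafeteria replicate 3 at −1.27 and was 0.91 in cafeteria replicate 4 and 0.93 in standard replicate 5, with sums of 9534 to 22688 in the standard and 4512 to 23130 in the cafeteria arrays. No marker of these 3 lists was listed at 0.

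**Figure D5:**
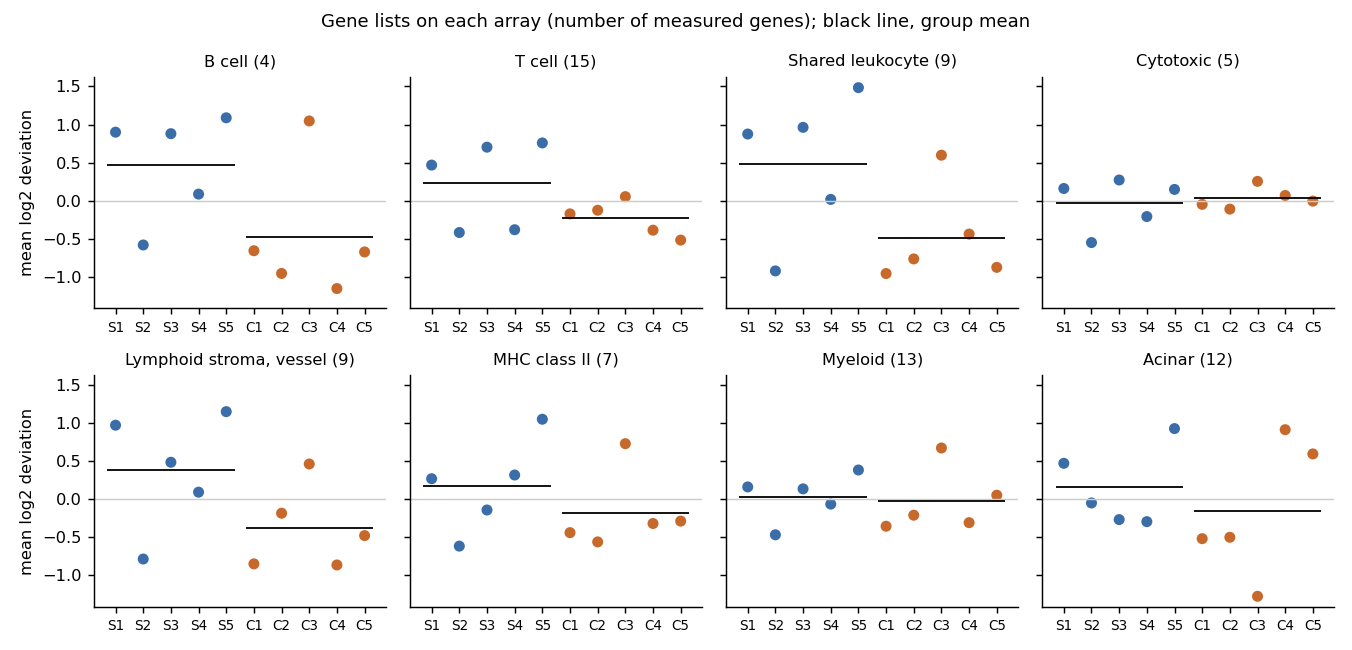
Mean log2 deviation of 8 gene lists on each of 10 arrays (S, standard chow, blue; C, cafeteria diet, orange), with the number of measured genes in brackets and the group mean as a black line. C3 is high for B cell, shared leukocyte, lymphoid stroma, MHC class II and myeloid genes, near 0 for T cell genes and lowest for acinar genes.

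An RNA quality value differed between the groups. The GAPDH control probesets gave 3 prime over 5 prime signal ratios of 1.26, 1.00, 1.24, 1.17 and 1.14 in standard replicates 1 to 5, and 1.01, 0.977, 0.968, 0.964 and 1.11 in cafeteria replicates 1 to 5. Among standard arrays the ratio was highest in replicates 1 and 3, where lymphocyte genes were high. It was lowest in replicate 2, where they were low. Standard replicate 4, with lower lymphocyte values than replicate 5, had a higher ratio than replicate 5. In cafeteria replicate 3, where Ms4a1 and Cd79b were high, the ratio was among the lowest of all arrays. The log2 difference was −0.205 (exact two-sided permutation test over 252 divisions, p = 0.0238, where the smallest possible is 0.00794). With this ratio as a covariate 0 tested lymphocyte genes were lower at an unadjusted p under 0.05, and the median difference was −0.39 for B cell, −0.10 for T cell and −0.36 for shared genes. Its part in the differences between diets was not tested beyond that fit.

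Leaving out single arrays moved the counts between diets. At an unadjusted p under 0.05, the number of lower lymphocyte genes was 4 with all arrays, 14 without standard replicate 2, 9 without cafeteria replicate 3 and 8 without standard replicate 4. It was 0 without standard replicate 3 or 5, 1 without standard replicate 1 or without cafeteria replicate 1 or 5, and 2 without cafeteria replicate 2 or 4. In each of these fits 0 lymphocyte genes passed the adjusted threshold. The share of all tested probesets lower at that unadjusted p was 4.91% with all arrays and is not given for the fits without an array. These counts therefore do not show whether the other probesets moved as well. The median difference of the T cell genes stayed between −0.68 and −0.40 and that of the shared genes between −1.57 and −0.87.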

How the data were processed

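The 10 arrays, 5 per diet, were taken from 1 table of the series. Its values are linear intensity values that the authors deposited after MAS5, which the submitters' processing notes name without a version; its scaling is seen in equal trimmed means (2% trimmed at each end). A genome build was not given in the sources used here. The table held 31099 probesets, 57 of them controls. MAS5 adds noise to dim probesets, and equal scaling hides changes in total RNA.

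Symbols came from the platform annotation. The entrez IDs of all 33 measured genes were in the RefSeq gene table of GRCr8 with the same symbol. The pseudocount was the 10th percentile of all values. The test was limma 3.58.1 in R 4.3.3 with Benjamini-Hochberg adjustment over all 18625 tested probesets (threshold 0.05, 8 residual and 3.11 prior degrees of freedom), checked on simulated data. All 33 measured genes are named, with up to 4 tested genes of lowest p from each further lymphocyte, plasma cell and lymphoid tissue list. The genes and lists were chosen with earlier results of these data known, so no p is given for a list. The samples were described as independent, so same-numbered replicates of the 2 diets were not treated as pairs. Their deviations correlated at −0.0017 to 0.296. Other settings, 22 in all, were another pseudocount, filter, normalization, variance model, probeset rule, blocking on the replicate number, weighting arrays, a GAPDH ratio covariate, and leaving out each array.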

Additional observations from a re-analysis of the deposited data

Results flagged for a closer look

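Of 136 sets of 5 arrays (1 diet each, over 68 measures: gene levels, list means and the GAPDH ratio), 15 had 1 array set well apart under Dixon's criterion, where chance gives about 1 set in 20, or 6.8. Genes of 1 cell type vary together, so these sets are not independent. Values are log2 signals or mean log2 deviations.

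Cafeteria replicate 3 was the far array in 11 of the 15, always as the highest of its diet. It was highest for Il2rg at 9.01 (others 8.22 to 8.35), Cd37 at 8.04 (others 6.001 to 6.58), Ltb at 8.79 (others 6.05 to 6.50) and Rac2 at 10.16 (others 7.27 to 7.91). It was also highest for the further B cell genes Pou2af1 at 8.16 (others 5.87 to 5.99) and Cr2 at 9.43 (others 4.87 to 5.93), and for the chemokine Cxcl13 at 9.95 (others 5.55 to 6.44). Among list means it was highest for all 33 genes at 0.354 (others −0.553 to −0.396), for B cell genes at 1.05 (others −1.15 to −0.654), for further B cell genes at 0.750 (others −0.619 to −0.468) and for MHC class II markers at 0.728 (others −0.560 to −0.287). The mean of the T cell genes was not among these sets.

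The remaining 4 sets were of dim or narrow genes: Cd5 highest in cafeteria replicate 4 at 7.09 (others 6.67 to 6.79), Cd8a highest in cafeteria replicate 2 at 6.48 (others 4.75 to 5.15), and Cd52 lowest in standard replicate 3 at 4.40 (others 5.45 to 5.85) and in cafeteria replicate 5 at 4.76 (others 5.85 to 6.08).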

How the results depend on the processing

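Under the 22 other settings 0 lymphocyte genes passed the adjusted threshold. The counts that follow are given without the share of all tested probesets in the same fit. The count of lower genes at an unadjusted p under 0.05, 4 in the fit reported, was 2 with the filter at the 60th percentile (7 genes tested), 9 with median centring, 2 with array weights, 11 with the replicate block and 0 with the GAPDH ratio as a covariate, and ran from 0 to 14 over the fits that left out an array; the cause was not tested. The block with the replicate number changed no call past the adjusted threshold. It is not a paired analysis, as the samples were described as independent. The median difference of each of the 4 roles moved by less than the within-group spread of its list mean between arrays. That limit is wide and does not show that the medians were stable. The T cell median, −0.49 in the fit reported, was −0.10 with the GAPDH covariate. The cytotoxic median, 0.08 in the fit reported, ran from −0.07 without standard replicate 2 to 0.12 with a pseudocount of 1. Of 726 values for single genes 703 kept their sign and 23, of 13 genes, turned. Of the 23, 17 were of 10 genes below the filter, and 13 were of the 5 cytotoxic genes. Many of the 703 could not have turned. Another filter, another variance model and the replicate block leave a gene's difference as it was, and another probeset rule changes it for some genes only. The 703 is therefore not a measure of how stable the signs were. The 6 of tested genes were Cd3g to 0.091, Gzmk to 0.032 and Cxcr5 to −0.12 with the GAPDH covariate, Gzmk to 0.042 without standard replicate 3, and Cxcr5 to −0.022 without standard replicate 4 and −0.0080 without cafeteria replicate 3; without single arrays Cxcr5 ran from −0.022 to 0.141 and Gzmk from −0.136 to 0.042. The GAPDH log2 difference ran from −0.258 to −0.174 without single arrays and missed the threshold without standard replicate 1, 3, 4 or 5 (exact permutation p up to 0.0635). Signal limits the dim genes: 18 of 33 lay below the filter, and for those no test was made in the fit reported.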
